A study of Homo sapiens with 13 samples.

Results

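The allelic comparisons of a scoliosis variant library in SW1353, a human chondrosarcoma cell line, are described here. They comprised every pair of an alternative and a reference allele that the library carried at a numbered chromosome position, apart from the Crohn's disease elements, in the DNA and RNA counts of SW1353. The library held 4468 such pairs at 1579 positions in 25 loci, among 9769 designed sequences (elements) counted in SW1353. Of the pairs, 4334 were substitutions, 79 were deletions and 55 were insertions. A pair was compared where both alleles had at least 10 barcode columns with a DNA count in each of 3 replicates. This was so for 4400 pairs, of which 4272 were substitutions, 76 deletions and 52 insertions, and 68 pairs were left out. Up to 3 pairs shared a reference element, so that the 4400 pairs rested on 1553 reference elements.

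Adolescent idiopathic scoliosis bends and rotates the spine of otherwise healthy children as they grow, and most of the common variants associated with it lie outside coding sequence. In a lentiviral massively parallel reporter assay, a lentivirus inserts many reporter constructs into the genome of the cells, each with a test sequence and a transcribed barcode. The number of barcodes of a sequence in RNA, set against their number in the integrated DNA, measures how strongly the sequence drives transcription, and a pair of elements that differ by 1 variant shows what the variant does to that activity. The assay reads a short sequence outside its own chromosomal surroundings, and it depends on the transcription factors of the host cell.

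SW1353 cells were infected with the library and incubated for 48 hours, and DNA and RNA were isolated together in 3 numbered replicates. The 6 SW1353 count libraries were untreated otherwise, carried no engineered allele as far as the labels say, and are labelled as chondrocytes although the line comes from a chondrosarcoma. The same 4468 pairs were assayed in 3 replicates of TC28a2, an immortalized chondrocyte line, which served as a second cell context. There 7236 elements were counted, against 9769 in SW1353, so that the set of elements differed between the lines. In comparisons of the lines, cell line and element set cannot be told apart. The labels do not say that replicates were separate cultures, so that every p-value measures the spread between these samples, which may be technical.

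The deposited values were counts per allele, replicate and barcode column (slot), with at most 500 slots for each allele and replicate. DNA totals of SW1353 ranged from 15582658 to 15626361 counts and RNA totals from 37571404 to 37631975. The median variant element had 164 to 167 slots with a DNA count and 89 to 90 with an RNA count. Among variant elements, 13.2% reached the limit of 500 slots in DNA and 3.49% in RNA, so that these totals are not the full depth. The median allele of a tested pair had 3287.5 DNA counts and 5241.5 RNA counts over the 3 replicates.

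The replicate labels of the slots could not be taken as given. Over the first 10 DNA slots, counts of the same slot correlated between replicates 1 and 2 with r = 0.177 and between replicates 2 and 3 with r = 0.187. Between replicate 3 and the following slot of replicate 1 the value was 0.104 (7687 rows of an allele, which share libraries and repeat a shared reference). Over slots 101 to 200 these 3 values were 0.141, 0.146 and 0.145, so that a value resembled the next value of another slot as much as the next value of its own. In RNA all 3 were negative at the first slots, at -0.12, -0.14 and -0.15. A labelled replicate may thus hold counts of more than 1 library, and its spread against the others then reflects different barcodes as well as different samples. For this reason single slots were not matched between replicates. They were summed for each allele and labelled replicate before any comparison, which does not undo such mixing.

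The level of an element below is log2 of its RNA counts over its DNA counts, each scaled to its library total, minus the median of the scrambled control sequences of the same line, so that 0 is the median of those controls. The 191 scrambled controls had an SD of 0.50 in SW1353. The median reference element stood at 0.41 and the median alternative element at 0.42. An effect is the level of the alternative minus that of the reference, and positive effects mean that the alternative was higher. Variants are written as the reference base, the hg19 position (the first base of a chromosome is 1), and the alternative base, and genes beside loci are named from general knowledge of that build.

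Most alternative alleles were close to their reference. The middle 90% of the mean effects lay between -0.49 and 0.50, the median was 0.01 and the median size 0.18. The median SD of an effect over its 3 replicates was 0.39, which describes single replicates. The mean effects had an SD of 0.31 over all pairs, beside a median SE of 0.26 in the edgeR fit described below. Effects of the same pairs in different replicates were hardly related, with r between -0.083 and 0.0037 over 4400 pairs, whereas the levels of the alternative elements themselves correlated with r between 0.465 and 0.494 between replicates. Reference and alternative levels of a pair, averaged over replicates, correlated with r = 0.762. These points share libraries and reference elements, and the values are descriptions. Reference elements whose positions were at most 10 bp apart, and which therefore overlap, differed by a median of 0.19 (22 pairs of elements), about the median size of an allelic effect.

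The question of the assay was which alternative alleles change the activity of their element. In edgeR's quasi-likelihood test of allele by RNA against DNA, 1 of 4400 pairs was called at an adjusted p under 0.05, which is 0.0227% of those tested. It was higher with the alternative allele, and 0 pairs were called lower. At an unadjusted p under 0.05 there were 144 pairs (3.27%), of which 75 were higher (1.7%) and 69 lower (1.57%). Without any effects, an exact test would give a share of 0.05 at this threshold, and the share found was below it. That also held for edgeR's tests of positions and of lines below, over all positions or pairs tested. DESeq2 called 1 pair with 162 at an unadjusted p under 0.05, and limma called 0 with 146. The 144 pairs are described below as a list, and a p of this kind is no call. Pairs named below were chosen by low p-values, most of them also by 1 sign in all 3 replicates. Groups of values without overlap follow in part from that choice and are descriptions. Over all 4400 pairs, 511 were positive and 529 negative in all 3 replicates.

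The called pair was the deletion of a T at position 53822169 of chromosome 16, in the locus of the RNA demethylase gene FTO. Its reference element stood at 1.14, 1.61 and 1.41 in replicates 1 to 3, and the element with the deletion at 3.16, 2.98 and 3.37. All 3 values with the deletion were above all 3 of the reference, by more than the whole range of either allele. The effect was 1.79 ± 0.36 (SD, n = 3), a 3.45-fold difference in the fit. The edgeR estimate was 1.78 with an SE of 0.16 and an adjusted p of 0.000664. The effect came from RNA, since DNA counts were alike, at 6709 for the reference and 6462 for the deletion, while RNA counts were 21370 and 70038. Counts were spread over many barcodes, with a median of 250 and 263 RNA slots per replicate, and the highest slot held 5.84% and 3.21% of the RNA counts of the 2 alleles. In TC28a2 the 3 effects were 2.04, 1.81 and 1.42, and the difference between the lines was 0.03 (edgeR, unadjusted p = 0.901). Without replicate 3 the deletion was no longer called (log2 1.69, edgeR adjusted p = 0.109), and limma gave an adjusted p of 0.989 at the same size of effect. Over all alternatives the effect lay between 1.54 and 1.99, and without the highest slots it was 1.84.

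The other deletions and insertions gave no call. Of the 76 tested deletions, 4 had an unadjusted p under 0.05, and of the 52 insertions 3 did. Median effects were -0.02 for the 45 deletions of 1 base, -0.03 for 22 deletions of 2 to 4 bases and -0.12 for 9 longer ones, the longest of 22 bases. Insertions of 1 base had a median of -0.01 (28 pairs), those of 2 to 4 bases 0.16 (15 pairs) and those of 5 or more bases, up to 15, -0.06 (9 pairs). The lowest p among insertions belonged to the 7 bases GTCAAGC inserted at 21974253 of chromosome 20, in the locus of PAX1, a paired-box transcription factor of the developing vertebral column. Its reference stood at 1.44, 0.93 and 0.67 and the insertion at 0.12, 0.24 and 0.28, without overlap. The difference was -0.80 with an SE of 0.18 (edgeR, unadjusted p = 0.000908, adjusted p = 0.991), and RNA counts were 20625 against 11393 over similar DNA counts of 8331 and 8141. Removing the highest slot of each allele, replicate and library left -0.67, which was then called (edgeR adjusted p = 0.0106), while the mean count per nonzero slot gave -0.37. TC28a2 gave -0.27, negative in 3 of 3 replicates, and both elements reached the slot limit in SW1353.

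Beside these, 5 indels had an unadjusted p under 0.05 and no call. An inserted AA at 82885039 of chromosome 16, in the locus of the cadherin gene CDH13, stood at 0.31, 0.67 and 0.74 against -0.41, -0.62 and -0.08 of its reference (edgeR, unadjusted p = 0.0119). Deletion of a T at 222798138 of chromosome 2, between the receptor gene EPHA4 and the transcription factor gene PAX3, gave -0.63 with an SE of 0.26. Deletion of a C at 16219775 of chromosome 11, in the locus of SOX6, a transcription factor of cartilage formation, gave -0.38 with an SE of 0.17, and its 3 values of -0.22, -0.04 and -0.16 lay below the reference values of 0.17, 0.21 and 0.33. An inserted CATTT at 85233129 of chromosome 4 gave -0.53 with an SE of 0.23. Deletion of ATTC at 17788887 of chromosome 12 gave -1.05 with an SE of 0.41, but its groups overlapped, with a reference at 0.30, 2.03 and 1.62 and 35.7% of its RNA counts in 1 slot. Without the highest slots that difference was -0.26.

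Among substitutions, the 9 pairs with the lowest p and a higher alternative in every replicate had effects between 0.47 and 1.25, unadjusted p-values between 0.000544 and 0.00826 and an edgeR adjusted p of 0.991 each. At the ABO locus, which encodes a glycosyltransferase that sets blood groups, A136143000G on chromosome 9 stood at 1.11, 0.42 and 0.77 against 0.00, -0.16 and -0.24 of its reference, and the groups did not overlap. At PAX1 on chromosome 20, A21823771C stood at 0.21, 0.23 and 0.36 against -0.20, -0.61 and -0.51, again without overlap. At CDH13, C82878267G stood at 1.53, 1.88 and 1.38 against 0.33, 0.69 and 0.95, also without overlap. These 3 differences were 0.90 (SE 0.19), 0.71 (SE 0.20) and 0.94 (SE 0.27). Their lack of overlap follows in part from the choice by p and sign.

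The smallest spread in this group was that of G19757372A on chromosome 22, in the locus of TBX1, a T-box transcription factor. Its levels of 0.90, 0.79 and 0.67 lay above the reference values of 0.51, 0.22 and 0.24, with an effect of 0.47 ± 0.09 (SD, n = 3). Without the highest slot the difference was 0.15. For A21852049C at PAX1 the difference of 0.64 became 0.23, and for T21975026G at the same locus 1.14 became 0.51, where 39.4% of the RNA counts of the alternative lay in 1 slot. The remaining 3 were T81210583G on chromosome 6 (1.25, SE 0.39, from 834 and 1153 DNA counts), G3130706A at CSMD1 on chromosome 8 (0.86, SE 0.26), and A208298451G at PLXNA2 on chromosome 1 (0.93, SE 0.29). Without the highest slots these 3 were 1.03, 0.58 and 0.58.

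The 10 pairs with the lowest p and a lower alternative in every replicate had differences between -2.12 and -0.44, and unadjusted p-values of at most 0.00919 with an edgeR adjusted p of 0.991 each. One of them is the PAX1 insertion above. At the locus of PLXNA2, a plexin receptor of semaphorins, C208255991A on chromosome 1 stood at 0.32, -0.26 and -0.24 against 0.78, 0.64 and 0.42. The difference was -0.67 (SE 0.18). It was the only one of these 10 with an unadjusted p under 0.05 in TC28a2 as well, at -0.40 (edgeR, unadjusted p = 0.0419), negative in 3 of 3 replicates there. At CDH13, C82899561G stood at 0.19, 0.27 and 0.28 against 1.07, 0.82 and 0.78, a difference of -0.65 (SE 0.17). In both variants the groups did not overlap, which again follows in part from the choice by p and sign.

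The most precise of the lower alternatives lay in the locus of the ligand genes WNT9A and WNT3A on chromosome 1. C228133322T stood at 1.80, 1.76 and 1.75 against 2.34, 2.04 and 2.27 of an active reference element, a difference of -0.44 (SE 0.12) from 45946 and 35972 RNA counts. TC28a2 gave 0.01. At BNC2, a zinc finger transcription factor gene on chromosome 9, C16699287G stood at -0.26, -0.33 and -0.32 against 0.48, 0.40 and 0.65, a difference of -0.82 (SE 0.24). There the element with the alternative base was below the median scrambled control in all 3 replicates. G21918310A at PAX1 had the smallest replicate spread of the 10, at -0.49 ± 0.04 (SD, n = 3), and G34380538C on chromosome 9 gave -0.54 (SE 0.17).

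At CSMD1 on chromosome 8, which encodes a large membrane protein with complement control domains, 2 alternatives of one position were in the lower group. A3131160G stood at 0.47, 0.40 and 0.36 and A3131160T at 0.60, 0.43 and 0.30, against a shared reference at 1.33, 0.69 and 1.21. The differences of -0.67 and -0.63 rest on the same reference counts and are not separate evidence. The largest difference in size, -2.12 for G85212128A on chromosome 4, came from 312 and 375 DNA counts in as few as 19 slots, with 44.7% of the RNA counts of the reference in 1 slot. It was -0.87 without the highest slots.

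Single slots moved with these differences. The highest slot is taken here as the largest single count of an allele, as a share of its RNA counts over the 3 replicates. It was larger in the allele with the higher level in 2797 of the 4400 tested pairs (63.6%), in 122 of the 144 pairs at an unadjusted p under 0.05 (84.7%), in 9 of the 9 higher substitutions named above and in 9 of the 10 lower pairs. Without the highest slot of each allele, replicate and library, the median size of the 144 differences was 0.45 in place of 0.63, all but 2 kept their sign and 82 (56.9%) had an unadjusted p under 0.05. Over all 4400 pairs 200 did (4.55%), and edgeR called 7. Beside the FTO deletion these were the PAX1 insertion, A136143000G at ABO, C142703669G at ADGRG6 and the 3 alternatives of a BCL2 position described below, where the removal all but emptied the reference element. The median SE over all pairs was 0.26 with all slots and 0.24 without the highest.

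The same pairs were then set against TC28a2. The test of the difference between the lines called 0 of 4393 pairs in edgeR (84, or 1.91%, at an unadjusted p under 0.05) and 0 in limma (101 unadjusted). Of the 144 pairs at an unadjusted p under 0.05 in SW1353, 96 (66.7%) had the same sign in TC28a2, against 2345 of 4393 (53.4%) of all pairs, and the median size of their effect there was 0.14. An unadjusted p under 0.05 in both lines was found for 11 pairs, 10 of them with the same sign. The named pairs were chosen by their SW1353 values, which also enter the difference between lines, so that their counts here are descriptions. Of the 9 higher substitutions 3 had the same sign in TC28a2, 3 were negative in all TC28a2 replicates, and 8 differed between lines at an unadjusted p under 0.05. Of the 10 lower pairs 8 had the same sign and 4 differed at that level. Differences between these groups of pairs were not tested, and edgeR's adjusted p for every line difference among the named pairs was 1.00 to 2 decimals.

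The 1422 positions with 3 tested alternatives allow a comparison in which the reference element takes no part. The SD of an alternative minus its reference was 0.31 over these positions. That of an alternative minus another alternative of the same position was 0.32. Both spreads include measurement error, with a median SE of an effect of 0.26 over all tested pairs. Their similarity therefore does not show how far the bases differ. The median range of the 3 alternatives was 0.30 and their median SD 0.16, while mean alternative levels had an SD of 0.41 over positions. All 3 alternatives were above the reference at 358 positions, all 3 below at 336 and mixed at 728. The effects of different alternatives of a position correlated with r between 0.460 and 0.483. These values and the counts of positions rest on the shared reference element, whose error enters every effect of a position.

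In edgeR's F test of the 3 alternatives against each other, 1 of 1422 positions was called (0.0703%), and 59 (4.15%) had an unadjusted p under 0.05. The called position was 136143000 on chromosome 9, at ABO. The element with G stood at 1.11, 0.42 and 0.77, that with C at -0.32, -0.65 and -0.31, that with T at -0.23, -0.11 and -0.38, and the reference with A at 0.00, -0.16 and -0.24. All 3 values with G were above every value of the other bases, which overlapped one another. G was above C by 1.19 and above T by 1.01 (F = 20.3, edgeR adjusted p = 0.0252), whereas T and C differed by 0.18. RNA counts were 12264 for G, 4730 for C, 5475 for T and 7469 for A, over DNA counts of 5890, 5243, 5348 and 6780. None of the 4 elements was at the slot limit. The scrambled control centred on this position stood at 1.12 ± 0.13 (SD, n = 3), close to the highest value of G.

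The call at ABO held with the highest slot removed (edgeR adjusted p = 3.35e-06) and with the 3 highest removed. It was lost without replicate 1, 2 or 3 (edgeR adjusted p of 0.993, 0.104 and 0.631, with ranges between the alternatives from 1.08 to 1.25). Taken as a mean count per nonzero slot, the range of the alternatives was 0.31 with an adjusted p of 0.978. The median number of RNA slots was 157 for G and 124 for the reference. In TC28a2 the element with G stood at -0.34, -0.22 and 0.03 and the reference at -0.18, 0.11 and -0.77, so that G was below the reference in 2 of 3 replicates and the groups overlapped. The 3 alternatives there had an edgeR unadjusted p of 0.208. The test of the difference between lines at this position gave an unadjusted p of 0.0304 and an adjusted p of 0.998.

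No other position passed this test, and the next 4 by p differed in how well they were measured. At C228133322, in the locus of WNT9A and WNT3A, the element with G stood at 2.25, 2.46 and 2.41, that with A at 2.11, 2.05 and 1.95, and that with T at 1.80, 1.76 and 1.75. The 3 bases did not overlap, and G was above T by 0.60 (edgeR, unadjusted p = 0.00045, adjusted p = 0.32). Without the highest slot this position was called as well (edgeR adjusted p = 0.00437). Its 4 elements were at the slot limit, and TC28a2 levels were 1.17 for G, 1.20 for A and 1.02 for T. At T136146077, also at ABO, the alternative alleles had between 370 and 590 DNA counts, and the element with G stood at -2.14, -1.19 and -0.60 against values between 0.13 and 1.05 for the 2 other bases.

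The remaining 2 positions rested on single replicates or slots. A85224574C on chromosome 4 stood at 3.16, -0.32 and 3.39, so that it was high in replicates 1 and 3 and low in replicate 2, while the elements with G and T stayed between -0.38 and 0.50. In 1 slot lay 42.3% of the RNA counts of A85224574C. The range between the alternatives was 2.50 with all slots, 0.49 without the highest slot (edgeR, unadjusted p = 0.194) and 0.27 without the 3 highest. Leaving out replicate 2, the one that differed, gave calls against the reference (log2 3.07, edgeR adjusted p = 0.0203), among the bases and between lines. At A21852049 the element with C at 0.78, 1.42 and 1.54 was above those with G and T, and 21.8% of its RNA counts lay in 1 slot. There the range was 0.73 with all slots and 0.26 without the highest.

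Whether the 3 alternatives shared a change from the reference was asked with their mean against the reference. A change with 1 base only is diluted in this mean, which was 0.17 (SE 0.16) at the ABO position called above. EdgeR called 0 of 1422 positions, and 46 (3.23%) had an unadjusted p under 0.05, with 13 higher (0.914%) and 33 lower (2.32%). The lowest p was at C142703669 on chromosome 6, in the locus of ADGRG6, an adhesion G protein-coupled receptor gene long associated with scoliosis. This site was deeply counted, with 120414 DNA counts for the reference and 140884, 170000 and 167699 for A, G and T. The reference stood at 0.15, -0.06 and 0.04. The alternatives lay at 0.27, 0.12 and 0.23 for A, 0.36, 0.20 and 0.11 for G and 0.27, 0.11 and 0.11 for T. Each alternative was above the reference in each replicate, though the values overlapped between replicates.

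The mean difference at C142703669 was 0.16 with an SE of 0.04, or 1.11-fold (edgeR, unadjusted p = 0.00245, adjusted p = 0.993). In TC28a2 it was 0.13 with an SE of 0.03 (unadjusted p = 0.000116, adjusted p = 0.165), the lowest p of all positions there too. The difference between lines was 0.03 (unadjusted p = 0.586). Without the highest slot the position was called in SW1353 at the same size (0.16, edgeR adjusted p = 0.0216). The 3 alternatives differed from one another by at most 0.06, and they were at the slot limit while the reference was not.

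The next 4 positions of this test were larger and less precise. G85212128 on chromosome 4 had a mean difference of -1.73 from the few counts given above, which was -0.56 without the highest slot and -1.12 without replicate 3. At T21818681 in the PAX1 locus the mean difference was -0.69, with a reference at 0.73, 0.73 and -0.28, so that replicate 3 of the reference lay within the alternatives. The mean difference was -0.29 without the 3 highest slots. A85274171 on chromosome 4 was higher with each alternative base in each replicate, at 0.30 to 0.92 against 0.12, 0.13 and 0.12, and its mean difference was 0.48, against -0.10 in TC28a2. A142838644 at ADGRG6 was lower on average, at -0.62, with a reference that varied from -0.04 to 1.20. It was -0.31 without replicate 3, -0.96 without replicate 2 and -0.39 without the highest slot. Of the 46 positions 32 (69.6%) had the same sign in TC28a2, against 761 of 1421 (53.6%) of all positions. The tests of the line difference called 0 of 1421 positions for the mean (29, or 2.04%, at an unadjusted p under 0.05) and 0 of 1421 among alternatives (24, or 1.69%).

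One position was chosen after its values were seen, because its reference element held most of its counts in single slots. At T60860569 on chromosome 18, in the locus of the cell survival gene BCL2, the reference element had 188 DNA counts in as few as 12 slots and 1066 RNA counts, of which 97.4% lay in 1 slot. Its alternatives had between 8132 and 8888 DNA counts. The effects of T60860569C were 5.17, 2.72 and -4.00 in replicates 1 to 3, with an edgeR estimate of 0.30 and an SE of 1.45, and T60860569A and T60860569G followed the same pattern. The reference had a median of 3 RNA slots per replicate. Removing the highest slot, or the 3 highest, therefore takes away nearly all of its RNA counts, and the calls that this position then gives are set by that removal. Its fold differences under these settings are not reported.

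Classes of base change differed little. The median effect of the 12 substitution classes ranged from -0.03 ± 0.02 (SD, n = 3 replicates) for G to A, over 387 pairs, to 0.04 ± 0.02 for C to T, over 380 pairs. The highest class median was thus 0.06 above the lowest, which is small beside the SD of 0.31 of single effects. G to A had negative medians and C to T positive medians in all 3 replicates, but the 2 were picked as the extremes of the 12 classes. A to G and A to T had negative medians in all 3 replicates as well. In TC28a2, G to A and C to T had medians of -0.0034 and 0.019. The share of pairs at an unadjusted p under 0.05 went from 1.29% of G to T changes (5 of 387) to 5.18% of A to C changes (16 of 309), against 3.27% overall. It was 3.44% for transitions (49 of 1424) and 3.09% for transversions (88 of 2848).

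Within a position, where the shared reference cancels, the transition alternative minus the mean of the transversion alternatives had a median of -0.01 over 1422 positions. The values of the 3 replicates were -0.0093, -0.0158 and -0.0108, all negative. An exact two-sided sign-flip permutation test gave p = 0.25, the smallest value that 3 replicates allow. TC28a2 gave -0.0106 ± 0.0041 (SD, n = 3). The transition was above the transversions at 697 of the positions, and single positions had an SD of 0.28. By reference base the difference was -0.03 ± 0.03 for A, 0.02 ± 0.01 for C, -0.01 ± 0.02 for G and -0.03 ± 0.01 for T (SD, n = 3). Alternatives that are G or C minus those that are A or T gave 0.0081 ± 0.0234 (SD, n = 3), with replicates of either sign (exact sign-flip permutation p = 1).

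Most loci held pairs at an unadjusted p under 0.05, against 3.27% of all pairs. Chromosome 1 q21, chromosome 5 q11 and SOX9, all with few tested pairs, held none. Among loci with over 100 tested pairs the share went from 1.45% at BNC2 (2 of 138) and 1.59% at SOX6 (3 of 189) to 4.69% between EPHA4 and PAX3 (6 of 128) and 4.75% at chromosome 4 q21 (16 of 337). The largest locus, PAX1 with 739 tested pairs, had 26 (3.52%), of which 10 were higher and 16 lower. At CSMD1, 7 of 9 were lower, and at CDH13, 8 of 10 were higher, against 75 higher and 69 lower among all such pairs. These 2 loci were picked from 25, and pairs of a position share a reference element, so that the counts are not of separate pairs. The median effect over all tested pairs was 0.04 at CSMD1 and 0.02 at CDH13. FTO had 7 of 257 (2.72%), the called deletion included. At LBX1, the homeobox gene locus, 1 of 37 pairs had such a p, A102974109C at 0.47 (SE 0.18). None of 9 pairs at SOX9, the master transcription factor gene of cartilage, did. Median effects of the loci lay between -0.07 at chromosome 9 p13 and 0.11 at chromosome 1 q21.

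Precision followed the number of barcodes. Pairs with 10 to 49 DNA slots in the poorer allele and replicate had a median SE of 0.46 and an SD of effects of 0.50 (473 pairs). With 50 to 99 slots these were 0.33 and 0.36 (1030 pairs), with 100 to 199 slots 0.26 and 0.27 (1356 pairs), and with 200 to 500 slots 0.19 and 0.22 (1541 pairs). Of the 43 pairs with a mean effect beyond 1 in size, 22 higher and 21 lower, 20 had an unadjusted p under 0.05, and their median was 43 DNA slots against 145 over all pairs. The share of pairs at an unadjusted p under 0.05 was 4.54% (70 of 1541) in the best covered class and 1.99% to 3.20% in the others. Where the level of the pair in TC28a2, a measure from other libraries, was over 1, 6 of 83 pairs (7.23%) had such a p in SW1353. These 83 pairs lay at 37 positions. The level of a pair includes its alternative allele, so that an effect shared by both lines also moves the pair between these classes. Below 0 in TC28a2 it was 35 of 929 (3.77%), with a median SE of 0.31 against 0.18. Coverage differed as well, with a median of 101 DNA slots below 0 and 245 over 1. In the classes between, it was 72 of 2600 (2.77%) at 0 to 0.5 and 31 of 781 (3.97%) at 0.5 to 1, so that the share did not rise steadily.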

How the data were processed

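The authors deposited whole-number counts per barcode slot, without normalization, for each element, allele and replicate. Per the labels' protocols DNA and RNA were isolated together and a molecular identifier was read. Whether counts are molecules or reads, how slots were ordered, and the counting program are not given in the sources used here. Coordinates are hg19, per the submitters' processing notes.

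Slots were summed per element and labelled replicate. Pairs needed 10 nonzero DNA slots per allele and replicate. Allelic effects were tested with edgeR 4.0.16 in R 4.3.3 (quasi-likelihood, two-sided) for whether RNA relative to DNA differed between alleles. The DNA and RNA of 1 allele and replicate were blocked together. TMM scaling used the elements of every kind with at least 10 nonzero DNA slots in each replicate. P-values were adjusted by Benjamini-Hochberg over all pairs or positions, with a threshold of 0.05. Displayed levels used a pseudocount of 0.5. DESeq2 1.42.0 and limma 3.58.1 were alternatives. The edgeR step was tested on simulated data.

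The members and lists were chosen with earlier results of these data known. Named variants are the pairs called, the 10 lowest p-values in each direction among pairs with 1 sign in 3 replicates, indels with an unadjusted p under 0.05, and positions called or among the 5 lowest p-values of each position test. The removal of the 3 highest slots, the line tests by position and the counts of highest slots were added after values were seen. The pairing of DNA and RNA comes from the joint isolation. Deviations of same-numbered DNA and RNA libraries correlated with r = 0.032, 0.0062 and 0.00047 over 5973 elements. Differently numbered libraries gave r between -0.0195 and 0.0132. For replicates 2 and 3 the counts therefore do not single out the labelled pairing. Sequences of elements were not used here.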

Additional observations from a re-analysis of the deposited data

How the results depend on the processing

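Of the alternatives to the allelic test, RLE scaling, a minimum of 1 or 50 slots, leaving out elements at the limit, the mean per nonzero slot, DESeq2 and a fit with no replicate block for the pairing of DNA and RNA each gave 1 called pair, as reported. The fit without the block had 201 pairs at an unadjusted p under 0.05 in place of 144, and it changed no call at positions or between lines. Limma gave 0 pairs, removal of the highest slot 7 and of the 3 highest slots 8. In both removals 3 of the pairs are those of T60860569, whose reference is nearly emptied. Without replicates 1 to 3 in turn the count went from 0 to 2. For alternatives of a position against each other, removal of the highest slot or of the 3 highest gave 2 positions, the mean per nonzero slot 0, and leaving out a replicate 0 to 1. For the mean of the alternatives these were 2 and 4 positions, T60860569 among them, and leaving out a replicate gave 0 to 1, the 1 being T60860569 without replicate 3. For the difference between lines, leaving out a replicate gave 0 to 1 pairs, the 1 being A85224574C without replicate 2.

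The range between class medians was 0.050 without the highest slot, 0.026 per nonzero slot, 0.046 with means in place of medians, and 0.058 to 0.070 without 1 replicate. The transition difference was -0.0164 with a minimum of 50 slots, -0.000127 without elements at the limit, -0.000848 without the highest slot, -0.0174 per nonzero slot and -0.0025 with means, and -0.0133 to -0.0101 without 1 replicate. The difference between G or C and A or T alternatives changed sign without replicate 1 (-0.0053) and was 0.0163 at most. No named pair changed sign. Of their comparisons with an alternative, 310 kept their side of the threshold, 4 were newly called and 2 lost the call. The cause of these changes was not tested, except that fewer slots or samples enter by construction. Intervals and SEs cover the spread between labelled replicates, which may mix samples, and elements at the limit of 500 slots have lost counts.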
